A study of Homo sapiens with 12 samples.

Results

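The genes described here are 10 subunits and feedback inhibitors of the transcription factor NF-kB: NFKBIA, NFKBIE, NFKBIZ, NFKB1, NFKB2, RELB, TNFAIP3, BIRC3, IER3 and ZC3H12A. They were picked by symbol from a table of 58735 genes, and 10 of 10 passed the filter on low counts that left 16618 genes to test. RNA was sequenced from the immortalized human keratinocyte lines TIGK, which derives from the gingiva of the mouth, and HaCaT, which derives from skin, to compare how oral and skin keratinocytes respond to oxidative stress. Untreated TIGK, TIGK after H2O2, untreated HaCaT and HaCaT after H2O2 had 3 libraries each. All cells grew to confluence in DermaLife K keratinocyte medium, and treated cells received H2O2 in that medium at 5 mM for 3 h. The label of the treatment writes the formula with another last digit in some replicates, while the protocol of all samples names H2O2. Each tissue is represented by 1 line, so tissue and line cannot be told apart. The labels do not say that replicates were separate cultures, and p-values then measure only the spread between these samples, which may be technical.

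NF-kB is a family of dimeric transcription factors that resting cells hold back in the cytoplasm with inhibitors of the IkB type. Signals from receptors for TNF, interleukin 1 or microbial products activate a kinase complex that marks the inhibitors for breakdown, after which the dimers enter the nucleus. Several of the genes switched on there encode inhibitors of the same pathway, which makes it a feedback loop. In keratinocytes the pathway is best known for its part in inflammation and cell survival.

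Library totals lay between 30426401 and 49034244 counts. By chi-square per degree of freedom over all genes, replicate 3 of treated HaCaT lay at 28.2 and 18.9 from the other libraries of its group, which lay at 9.42 from each other. Replicate 3 of untreated TIGK lay at 15.3 and 11.9, beside 5.4 between the others of its group. Without the former, 2 of the 10 genes rose and 5 fell in TIGK and 1 rose and 1 fell in HaCaT. Without the latter, 2 rose and 3 fell in TIGK and 1 rose and 1 fell in HaCaT. The share of counts on mitochondrial genes was 3.33 to 3.45% in untreated TIGK, 1.39 to 1.5% in treated TIGK, 6.1 to 6.26% in untreated HaCaT and 3.3 to 3.51% in treated HaCaT. With the mitochondrial genes left out of the fit, the 10 genes had the same calls in both responses. The keratinocyte markers KRT5, KRT14, TP63, CDH1 and DSG3 were present in every group. The summed level of 5 leukocyte markers was at most 5.92 normalized counts in any library, and COL1A2, a fibroblast collagen, was at 0 in every group. The summed level of 5 fibroblast markers was 603 to 713 in TIGK and 309 to 411 in HaCaT, with COL1A1 and PDGFRB above a mean of 10 in TIGK (LUM too after H2O2) and COL1A1 in HaCaT, and its part in the differences between the lines was not tested. Summed levels of 4 melanocyte and 3 endothelial markers were at most 93.8 and 59.7. In bulk RNA, fewer cells of a kind and less RNA per cell cannot be told apart.

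Several of these genes are known targets of NF-kB themselves, and bases near their starts are therefore shown. In RefSeq windows of 300 bases (250 before and 50 after each annotated start, GRCh38.p14), the 10-letter NF-kB consensus was searched on both strands. It was found in 3956 of 35116 windows (11.3%) and for 13.3% of 27305 genes. The promoter table held 7 of the 10 genes, and 6 of these 7 had a match, in 8 of their 11 windows. NFKBIE, RELB and IER3 were not matched to the table. The following sites of 30 bases run 5′ to 3′ along the strand of the gene, with the consensus in capitals, and are those of the genes whose values follow. Overlapping matches of NFKB2 were merged into 1 run.
NFKBIA, chr14:35404811-35404840, minus strand: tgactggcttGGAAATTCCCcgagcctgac
TNFAIP3, chr6:137867188-137867217, plus strand: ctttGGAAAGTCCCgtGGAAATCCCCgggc
NFKB1, chr4:102501300-102501329, plus strand: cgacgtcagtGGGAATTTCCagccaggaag
NFKB2, chr10:102394462-102394491, plus strand: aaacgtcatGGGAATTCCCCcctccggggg
NFKB2, chr10:102394490-102394519, plus strand: gggccgagaaGGGGCTTTCCcggccctgag
NFKB2, chr10:102395519-102395548, plus strand: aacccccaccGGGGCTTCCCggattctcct
NFKB2, chr10:102395674-102395703, plus strand: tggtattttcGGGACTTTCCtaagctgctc
BIRC3, chr11:102317275-102317304, plus strand: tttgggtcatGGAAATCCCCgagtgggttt
BIRC3, chr11:102317339-102317368, plus strand: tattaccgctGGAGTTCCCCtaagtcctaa
NFKBIZ, chr3:101827757-101827786, plus strand: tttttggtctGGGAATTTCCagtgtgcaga
NFKBIZ, chr3:101849265-101849294, plus strand: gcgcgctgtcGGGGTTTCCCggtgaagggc
The site of NFKBIA began 81 bases before its annotated start, and the pair of sites of TNFAIP3 began 67 and 55 bases before the RefSeq start, just inside the start of the gene in the deposited table. The site of NFKB1 began 49 bases before the start. All runs of NFKB2 and the downstream site of NFKBIZ lay past the start of their gene in the deposited table, before other RefSeq starts. The window of NFKB2 at the start in the deposited table held no match. In the window of ZC3H12A the letters of the consensus were not found. Its bases before the gene follow those of NFKBIA here because the responses of these genes to H2O2 in TIGK were opposite in direction. Of the genes with a match, NFKBIA, TNFAIP3 and NFKB1 fell in TIGK, while NFKB2, BIRC3 and NFKBIZ did not pass the test given below. IER3, which rose, had no window, and a link between a match and a response was not tested. A match describes the letters of a window and not binding.
NFKBIA, chr14:35404750-35404999, minus strand: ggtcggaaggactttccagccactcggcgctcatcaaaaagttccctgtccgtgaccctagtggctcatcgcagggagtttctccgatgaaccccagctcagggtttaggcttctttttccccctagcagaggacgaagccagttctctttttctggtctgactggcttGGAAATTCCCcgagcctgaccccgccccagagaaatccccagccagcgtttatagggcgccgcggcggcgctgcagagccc
ZC3H12A, chr1:37474330-37474551, plus strand: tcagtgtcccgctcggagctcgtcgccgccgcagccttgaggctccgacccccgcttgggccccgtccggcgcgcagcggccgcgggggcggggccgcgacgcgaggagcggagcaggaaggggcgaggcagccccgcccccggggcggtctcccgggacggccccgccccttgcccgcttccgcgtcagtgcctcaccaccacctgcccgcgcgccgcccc

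After H2O2, TIGK changed 6 of the 10 genes and HaCaT changed 2. In TIGK, the immediate early gene IER3 and the RNase gene ZC3H12A rose 3.05-fold and 2.65-fold, while the ubiquitin-editing enzyme gene TNFAIP3, the subunit genes RELB and NFKB1 and the IkB gene NFKBIA fell. In HaCaT, IER3 rose 1.46-fold and TNFAIP3 fell to 0.56 of its untreated level, and the other 8 genes did not pass the test. The test was edgeR's quasi-likelihood test, with p-values adjusted by Benjamini-Hochberg over the 16618 genes and a limit of 0.01. Of the 10 genes, 2 rose and 4 fell in TIGK, where 10.2% of all genes tested rose and 12.9% fell. In HaCaT, 1 rose and 1 fell, where 18.9% of all genes rose and 15.2% fell. The 10 genes had a median log2 fold change of -0.16 in TIGK, against 0.0084 over all genes tested, and of 0.0072 in HaCaT, against 0.038. Fold changes below are on the log2 scale with their standard error (SE), and levels are counts normalized for library size, as mean ± SD with n = 3.

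**Figure D1:**
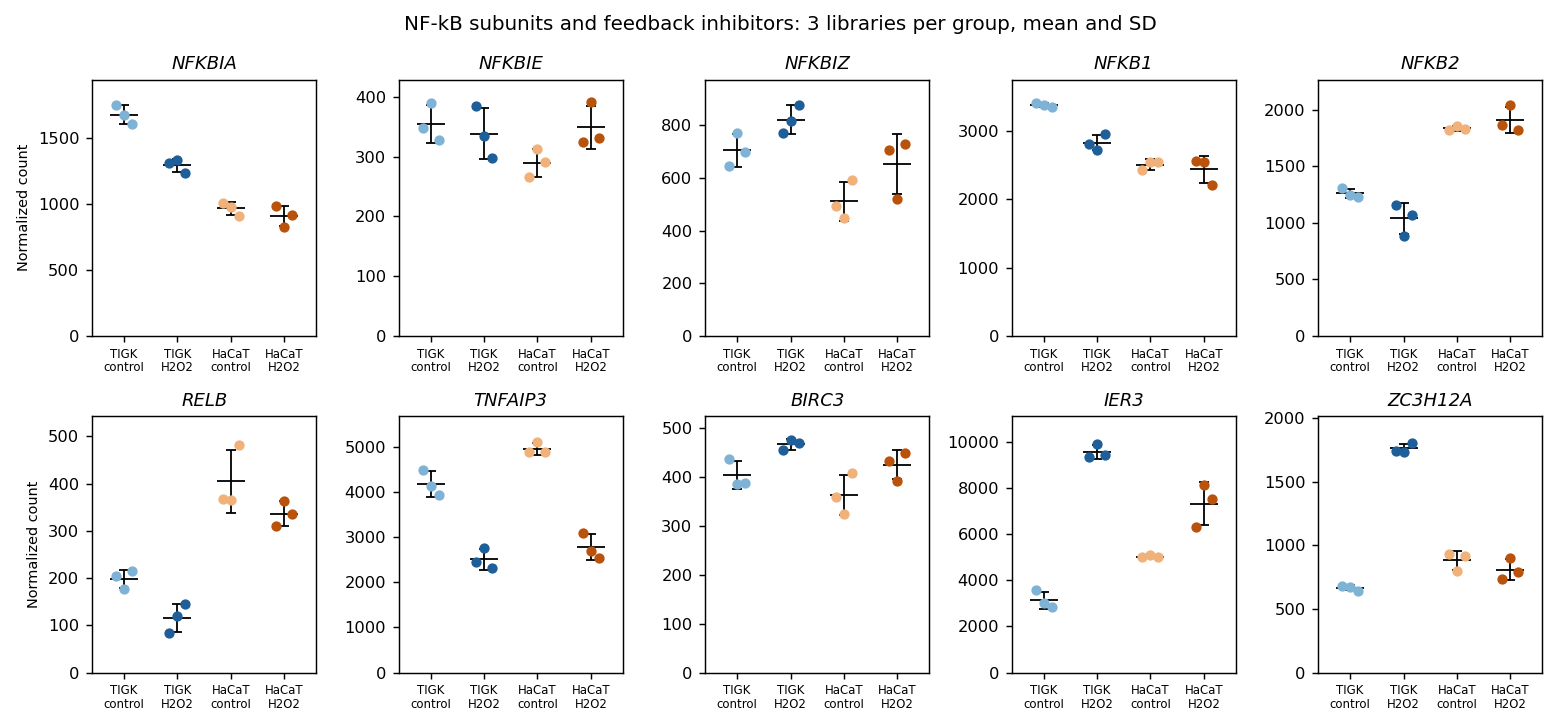
Normalized count of each of the 10 genes in the 4 groups, on axes that start at 0. Points are the 3 libraries of a group, the horizontal line is their mean and the bar 1 SD. IER3 and ZC3H12A stand highest in treated TIGK, and TNFAIP3 is lower in the treated libraries of both lines.

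The IkB proteins bind NF-kB dimers. NFKBIA (ENSG00000100906, chr14:35401511-35404749, minus strand) encodes IkB-alpha, the inhibitor that is made again soon after activation. Its normalized counts were 1754, 1676 and 1607 in untreated TIGK and 1309, 1336 and 1238 in treated TIGK. All treated libraries lay below all untreated ones, with means of 1679 ± 73.8 and 1294 ± 50.5. NFKBIA fell by 0.38 on the log2 scale in TIGK (SE 0.0748, edgeR adjusted p = 0.000694), to 0.771 of the untreated level. In HaCaT the values were 1010.1, 980.2 and 913 before and 986, 828 and 916 after H2O2. These ranges overlapped, and the log2 fold change of -0.09 (95% interval -0.252 to 0.0726, edgeR adjusted p = 0.365) did not pass the test. Without replicate 3 of treated TIGK, NFKBIA missed the limit in TIGK (-0.313, edgeR adjusted p = 0.0118), and this was the 1 loss among its 22 alternatives. With other single libraries left out, the edgeR adjusted p began at 0.000396.

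NFKBIE (ENSG00000146232, chr6:44258166-44265788, minus strand) encodes IkB-epsilon, another cytoplasmic inhibitor. It had 348, 389.8 and 327 normalized counts in untreated TIGK and 384, 334 and 298 after H2O2, and these ranges overlapped. In HaCaT it had 265, 313 and 290.3 before and 325, 391 and 331 after. The treated HaCaT libraries all lay above the untreated ones, a pattern that 29.7% of all genes showed in this comparison. The log2 fold changes of -0.07 in TIGK (95% interval -0.339 to 0.193) and 0.27 in HaCaT (0.00235 to 0.541) gave edgeR adjusted p = 0.692 and 0.0912.

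NFKBIZ (ENSG00000144802, chr3:101827991-101861022, plus strand) encodes IkB-zeta, a nuclear member of the IkB family that acts on the transcription of selected NF-kB targets. Its normalized counts were 647, 772 and 697 in untreated TIGK and 769, 817 and 879 after H2O2. In HaCaT they were 492, 449 and 591 before and 705, 521 and 728 after. In both lines the ranges overlapped, in HaCaT through replicate 2 of the treated group. The log2 fold changes were 0.22 in TIGK (95% interval -0.0342 to 0.477, edgeR adjusted p = 0.167) and 0.35 in HaCaT (0.0894 to 0.615, edgeR adjusted p = 0.0272). Without replicate 2 of treated HaCaT the HaCaT value was 0.489, which passed the limit (edgeR adjusted p = 0.00319).

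The Rel and NF-kB subunits form the dimers themselves. NFKB1 (ENSG00000109320, chr4:102501329-102617302, plus strand) encodes the precursor p105 and its product p50. It had 3411, 3375 and 3348 normalized counts in untreated TIGK and 2809, 2723 and 2948 after H2O2. The treated libraries all lay below the untreated ones, with means of 2826 ± 113 and 3378 ± 31.4. NFKB1 fell by 0.26 in TIGK (SE 0.0613, edgeR adjusted p = 0.00309). The HaCaT values of 2421, 2551 and 2550.3 before and 2552, 2547 and 2207 after H2O2 overlapped, and the log2 fold change of -0.04 (95% interval -0.172 to 0.0881) gave an edgeR adjusted p of 0.615. The call in TIGK was lost without replicate 1 or 2 of untreated TIGK and without replicate 1 or 2 of treated TIGK, with log2 fold changes of -0.251, -0.234, -0.252 and -0.202.

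NFKB2 (ENSG00000077150, chr10:102394110-102402529, plus strand) encodes p100, the precursor of p52 in the noncanonical branch of the pathway. Its normalized counts were 1305, 1249 and 1232 in untreated TIGK and 1160.3, 884 and 1073 after H2O2. The treated TIGK libraries all lay below the untreated ones, as for 25.4% of all genes, but the log2 fold change of -0.28 (SE 0.0833, 95% interval -0.457 to -0.107, edgeR adjusted p = 0.0129) missed the limit. It passed without replicate 1 of treated TIGK (-0.365, edgeR adjusted p = 0.00438) or without replicate 3 of treated HaCaT (-0.282, edgeR adjusted p = 0.00803), and with DESeq2. In HaCaT the values were 1819, 1858 and 1834 before and 1870.2, 2041 and 1819 after, with a log2 fold change of 0.06 (95% interval -0.113 to 0.226, edgeR adjusted p = 0.604).

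RELB (ENSG00000104856, chr19:45001430-45038198, plus strand) encodes the partner of p52 and was, per length, among the lowest of the 10 genes in TIGK. It had 203, 177 and 214 normalized counts in untreated TIGK and 83.5, 119 and 144 in treated TIGK, with no overlap. RELB fell by 0.76 in TIGK (SE 0.177, edgeR adjusted p = 0.00254), to 0.59 of the untreated level. In HaCaT it had 368, 365 and 482 before and 310.4, 363 and 335 after H2O2. The treated HaCaT libraries also lay below the untreated ones, as for 24.1% of all genes, and the log2 fold change of -0.27 (95% interval -0.603 to 0.0681, edgeR adjusted p = 0.182) did not pass. The TIGK value moved to -0.703, -0.588 and -0.747 and missed the limit without replicate 3 of untreated TIGK or replicate 1 or 2 of treated TIGK.

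TNFAIP3 (ENSG00000118503, chr6:137867188-137883312, plus strand) encodes A20, which edits ubiquitin chains on signaling proteins and thereby dampens the pathway. Its normalized counts were 4496, 4127 and 3926 in untreated TIGK and 2446, 2772 and 2312 after H2O2. In HaCaT they were 4878, 5114 and 4899 before and 3097, 2701 and 2539 after. In each line every treated library lay below every untreated one. TNFAIP3 fell by 0.74 in TIGK (SE 0.0771, edgeR adjusted p = 6.7e-07) and by 0.84 in HaCaT (SE 0.077, edgeR adjusted p = 1.08e-07). It was the one gene of the 10 that fell in both lines, and both calls held in each of the 22 alternatives. The gene AL357060.1 on the opposite strand shares 1046 bases with it, and whether counting used strand is not given in the sources used here. AL357060.1 had means of 224 and 174 normalized counts in untreated and treated TIGK and 597 and 447 in HaCaT, and its own log2 fold changes of -0.36 and -0.42 did not pass the test (edgeR adjusted p = 0.0936 and 0.0271). Its treated libraries lay below the untreated ones in both lines, as for 25.4% and 24.1% of all genes. Untreated HaCaT held more of it than untreated TIGK, by 1.42 on the log2 scale (edgeR adjusted p = 1.37e-07). Its part in the counts of TNFAIP3, and in the comparison of the lines below, was not tested.

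BIRC3 (ENSG00000023445, chr11:102317450-102339403, plus strand) encodes the ubiquitin ligase cIAP2, which takes part in signaling from TNF receptors. It had 438, 387 and 389 normalized counts in untreated TIGK and 456, 477 and 469.5 after H2O2. In HaCaT it had 359, 325 and 408 before and 434, 393 and 451 after. The ranges were separate in TIGK, as for 25.7% of all genes, and overlapped in HaCaT. The log2 fold changes of 0.21 in TIGK (95% interval -0.0177 to 0.434) and 0.23 in HaCaT (-0.00275 to 0.455) gave edgeR adjusted p = 0.141 and 0.0979.

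IER3 and ZC3H12A are induced regulators outside the core of the pathway. IER3 (ENSG00000137331, chr6:30743199-30744554, minus strand) is an immediate early gene with a part in cell survival. Its normalized counts were 3561, 2995 and 2862 in untreated TIGK and 9337, 9918 and 9446 after H2O2. In HaCaT they were 4992, 5089 and 4992 before and 6317, 8138 and 7520.0 after. The treated libraries lay above the untreated ones in both lines, and the treated TIGK libraries were the highest of all 12. IER3 rose by 1.61 in TIGK (SE 0.0836, edgeR adjusted p = 4.27e-11) and by 0.54 in HaCaT (SE 0.0817, edgeR adjusted p = 3.31e-05), and both calls held in each of the 22 alternatives. The antisense gene IER3-AS1 held at most 6 raw counts in any library.

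ZC3H12A (ENSG00000163874, chr1:37474552-37484379, plus strand) encodes Regnase-1, an RNase that breaks down mRNAs of inflammatory cytokines. It had 682, 669 and 644 normalized counts in untreated TIGK and 1743, 1736 and 1805 in treated TIGK. All treated TIGK libraries lay far above the untreated ones, with means of 1761 ± 38.2 and 665 ± 19.5. ZC3H12A rose by 1.41 in TIGK (SE 0.0843, edgeR adjusted p = 3.08e-10), a call that held in each of the 22 alternatives. In HaCaT it had 929, 798 and 918 before and 735, 902 and 789 after H2O2. These ranges overlapped, and the log2 fold change of -0.13 (95% interval -0.304 to 0.0505, edgeR adjusted p = 0.233) did not pass the test.

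**Figure D2:**
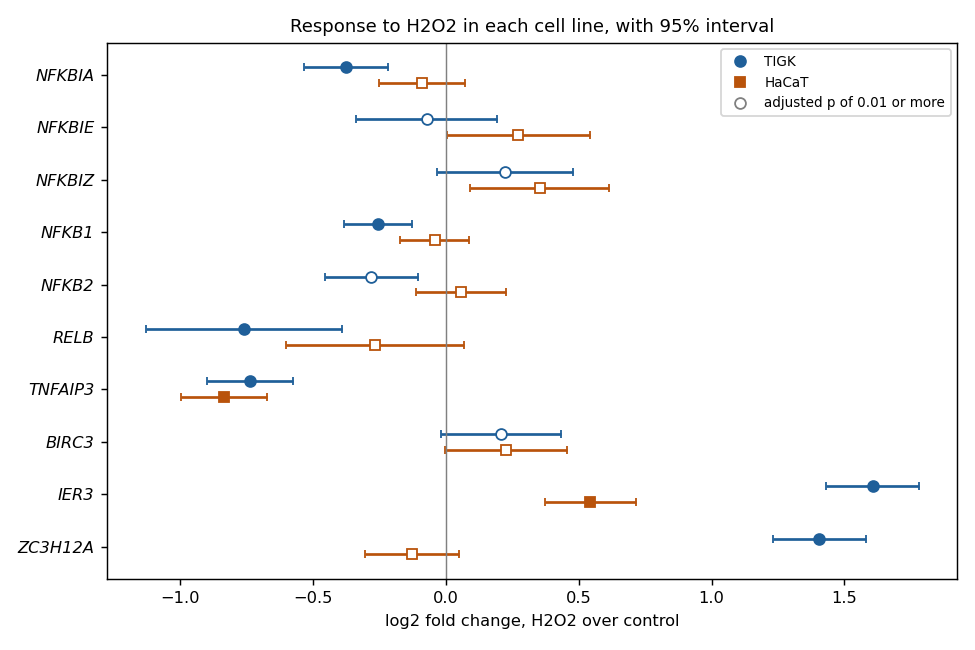
Log2 fold change of each gene after H2O2 over untreated cells in TIGK (circles) and HaCaT (squares), with the 95% interval of the edgeR fit as bars and open symbols for an adjusted p of 0.01 or more. Filled symbols appear for 6 genes in TIGK and for TNFAIP3 and IER3 in HaCaT.

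To ask whether the lines differed in their response, the log2 fold change in HaCaT was subtracted from that in TIGK and the difference tested with the model of all libraries. Only ZC3H12A and IER3 of the 10 genes passed, both with the stronger response in TIGK. For ZC3H12A the difference was 1.53 (SE 0.119, 95% interval 1.28 to 1.78, edgeR adjusted p = 1.05e-07). For IER3 it was 1.06 (SE 0.116, 95% interval 0.821 to 1.31, edgeR adjusted p = 7.13e-06). Thus 2 of the 10 genes passed with a higher and 0 with a lower response in TIGK, beside 2.32% and 2.98% of all genes tested. At an unadjusted p under 0.05, 3 of the 10 were lower in the edgeR test, and DESeq2 called 0. For NFKBIA, NFKB1 and RELB, which fell in TIGK and did not pass in HaCaT, the differences were -0.29, -0.21 and -0.49, with 95% intervals of -0.512 to -0.0607, -0.398 to -0.0322 and -0.994 to 0.00659. These missed the limit (edgeR adjusted p = 0.0939, 0.122 and 0.2), so a difference between the lines was not shown for them. The difference for NFKB2 was -0.34 (95% interval -0.582 to -0.0948, edgeR adjusted p = 0.0651). TNFAIP3 had a difference of 0.10 (95% interval -0.128 to 0.327, edgeR adjusted p = 0.618). For NFKBIE, NFKBIZ and BIRC3 the differences were -0.34, -0.13 and -0.02 (edgeR adjusted p = 0.24, 0.699 and 0.972).

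The untreated lines differed in most of these genes. The noncanonical subunits RELB and NFKB2 were higher in HaCaT, by 1.03 (SE 0.165, edgeR adjusted p = 1.8e-05) and 0.54 (SE 0.0819, edgeR adjusted p = 8.91e-06) on the log2 scale. IER3 was higher by 0.68, ZC3H12A by 0.41 and TNFAIP3 by 0.25 (edgeR adjusted p = 5.75e-07, 0.000298 and 0.00743). NFKBIA was lower in HaCaT, with a log2 fold change of -0.79 (SE 0.0757, edgeR adjusted p = 1.96e-08), and so were NFKBIZ at -0.47 and NFKB1 at -0.43 (edgeR adjusted p = 0.00272 and 4.4e-06). In all 8 the libraries of the 2 lines did not overlap. Counting NFKBIE, the HaCaT libraries lay wholly above for 5 and wholly below for 4 of the 10 genes, beside 36.2% and 37.1% of all genes. Thus 5 of the 10 genes were higher and 3 lower in untreated HaCaT, where 29.1% and 30.8% of all genes tested were. NFKBIE (-0.30, edgeR adjusted p = 0.0459) and BIRC3 (-0.15, edgeR adjusted p = 0.226) did not pass. TNFAIP3 missed the limit with RLE size factors (0.234), with library totals alone (0.173) and without any of 6 single libraries: replicate 2 or 3 of untreated TIGK, replicate 1 of treated TIGK or any 1 of untreated HaCaT, with 0.2 as the lowest value. NFKBIZ missed it without replicate 2 of untreated TIGK (-0.382) or replicate 1 or 2 of untreated HaCaT (-0.433 and -0.381).

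After H2O2 the order of the lines was turned for IER3 and ZC3H12A. Both were lower in treated HaCaT than in treated TIGK, with log2 fold changes of -0.39 (SE 0.0811, edgeR adjusted p = 0.000332) and -1.12 (SE 0.0835, edgeR adjusted p = 5.4e-10), where they had been higher in HaCaT without treatment. RELB was higher in treated HaCaT by 1.52 (SE 0.173, edgeR adjusted p = 2.38e-07) and NFKB2 by 0.88 (SE 0.0828, edgeR adjusted p = 1.61e-08). NFKBIA at -0.51 (edgeR adjusted p = 8.78e-06) and NFKB1 at -0.22 (edgeR adjusted p = 0.0046) were lower in HaCaT. With these, 2 of the 10 genes were higher and 4 lower, beside 30.2% and 29.8% of all genes. The HaCaT libraries lay wholly above for 2 and wholly below for 6, beside 35.8% and 35.6% of all genes. NFKBIZ (-0.33), NFKBIE (0.05), TNFAIP3 (0.15) and BIRC3 (-0.13) did not pass (edgeR adjusted p = 0.0213, 0.759, 0.0995 and 0.278). NFKB1 missed the limit without replicate 1 of treated TIGK (-0.221) or replicate 3 of treated HaCaT (-0.147). NFKBIZ passed it without replicate 1 or 3 of treated HaCaT (-0.432 and -0.42) and without the mitochondrial genes (-0.386). It also passed with DESeq2 (-0.369), with library totals alone (-0.411) and with no filter on low counts (-0.363), and DESeq2 thus called 5 of the 10 genes lower. These comparisons share their libraries with the 2 responses.

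**Figure D3:**
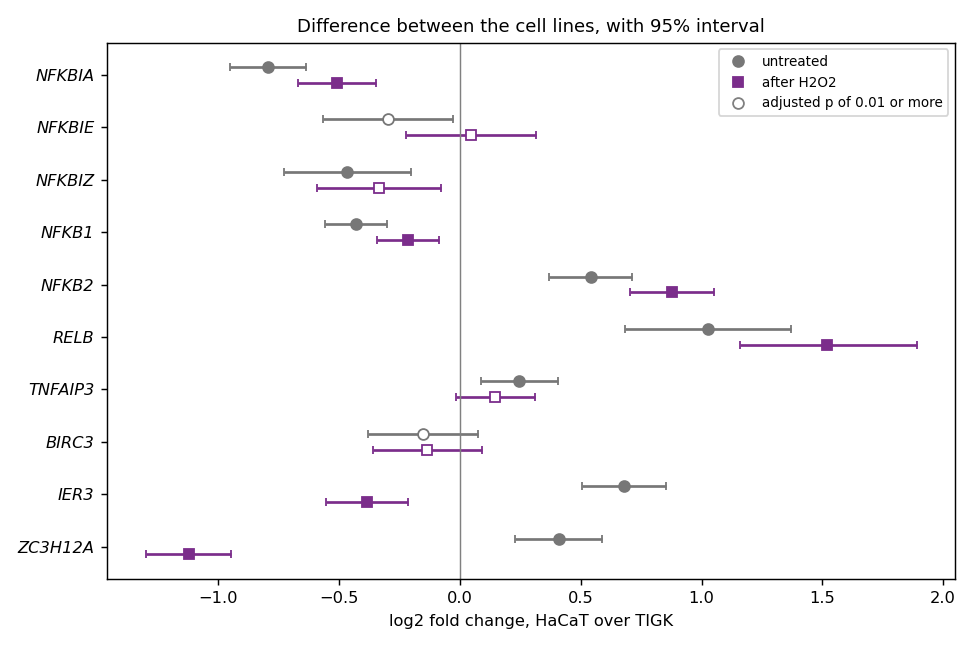
Log2 fold change of HaCaT over TIGK for each gene in untreated cells (circles) and after H2O2 (squares), with the 95% interval of the edgeR fit as bars and open symbols for an adjusted p of 0.01 or more. IER3 and ZC3H12A lie above 0 in untreated cells and below 0 after H2O2, while RELB and NFKB2 lie above 0 in both.

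Levels of different genes were compared as normalized counts per kilobase of gene length. IER3 was the highest of the 10 in every group, at 2315 ± 274 per kilobase in untreated TIGK, 7055 ± 228 in treated TIGK, 3705 ± 41.3 in untreated HaCaT and 5402 ± 683 in treated HaCaT. Over all genes tested, the median was 115, 114, 112 and 112 per kilobase. In untreated TIGK, TNFAIP3 (828 ± 57.2), NFKBIA (707 ± 31.1), NFKB1 (539.9 ± 5.02), NFKB2 (281 ± 8.43) and ZC3H12A (213 ± 6.24) followed, each separate from its neighbor. Below them NFKBIE (138 ± 12.4) and NFKBIZ (119.5 ± 10.7) overlapped, and RELB (65.3 ± 6.26) and BIRC3 (53.8 ± 3.88) came last. After H2O2 in TIGK, ZC3H12A came second at 564 ± 12.2 per kilobase, in a run with NFKBIA (545 ± 21.3), TNFAIP3 (497 ± 46.9) and NFKB1 (452 ± 18.1) in which each gene overlapped the next. Its place among all genes tested moved from the percentile 63.3 to 82.4 in TIGK, beside 68.7 and 66.3 in HaCaT. RELB was the lowest of the 10 in treated TIGK, at 38.1 ± 10 per kilobase.

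In untreated HaCaT, TNFAIP3 was second at 983 ± 25.9 per kilobase. NFKB2 (409.7 ± 4.31), NFKBIA (408 ± 20.9) and NFKB1 (401 ± 11.9) followed without separation between neighbors. ZC3H12A (283 ± 23.3) was separate from the genes above and below it, RELB (133 ± 22) and NFKBIE (112 ± 9.23) overlapped, and NFKBIZ (86.5 ± 12.4) and BIRC3 (48.4 ± 5.54) were lowest. In treated HaCaT, TNFAIP3 stood at 550.2 ± 56.9 per kilobase, again second, above NFKB2 (426 ± 26), NFKB1 (389 ± 31.7) and NFKBIA (383 ± 33.4), whose neighbors overlapped. ZC3H12A stood at 259 ± 27.3, NFKBIE at 135 ± 14.1, RELB and NFKBIZ at 111 ± 8.6 and 110.4 ± 19.2 with overlap, and BIRC3 at 56.6 ± 3.95.

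**Figure D4:**
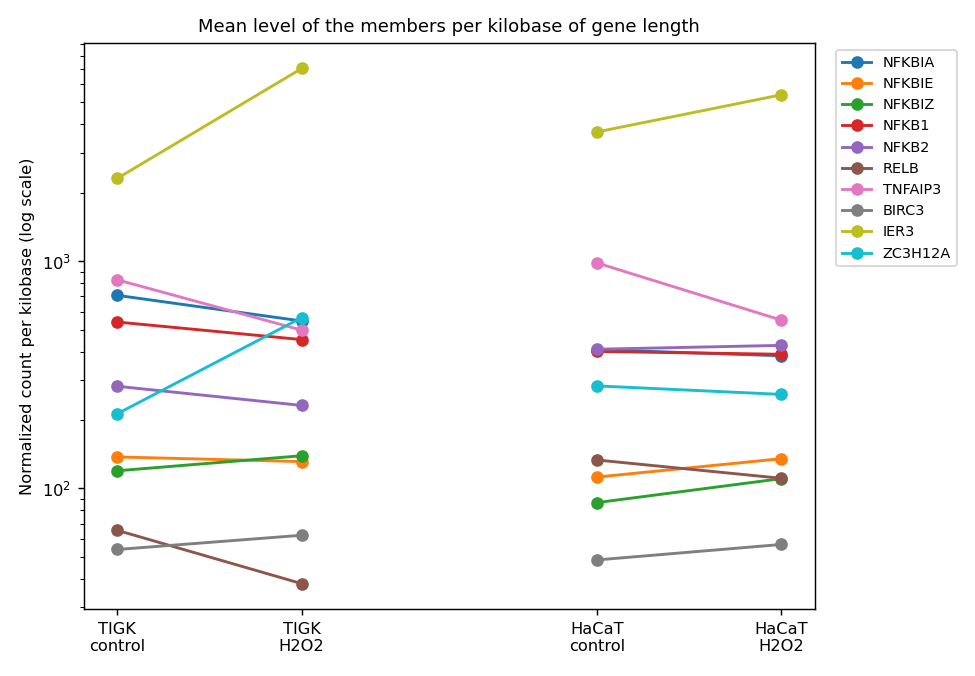
Mean normalized count per kilobase of gene length of the 10 genes in the 4 groups, on a log axis, with lines joining the untreated and treated cells of a line. IER3 is highest in all groups, and ZC3H12A crosses NFKB2, NFKB1, TNFAIP3 and NFKBIA between untreated and treated TIGK.

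The rest of the pathway was read from a list of 56 other genes, of which 52 were tested. TNF, CCL2, BCL2A1 and TNIP3 had too few counts. In TIGK, 4 of the 52 rose and 10 fell after H2O2, beside 10.2% and 12.9% of all genes tested. In HaCaT 11 rose and 10 fell, beside 18.9% and 15.2% of all genes. The median over the 52 was -0.082 in TIGK and 0.0096 in HaCaT on the log2 scale. Between the untreated lines, 15 were higher and 22 lower in HaCaT, beside 29.1% and 30.8% of all genes, and after H2O2 18 were higher and 23 lower, beside 30.2% and 29.8%. The difference of the responses passed for 1 gene with a higher and 5 with a lower value in TIGK, beside 2.32% and 2.98% of all genes.

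Of the 2 Rel subunit genes outside these 10, REL fell in both lines and RELA passed in neither. REL, which encodes c-Rel, had 374, 400 and 563 normalized counts in untreated and 295, 280 and 249 in treated TIGK, and 474, 406 and 561 in untreated and 322, 249 and 264 in treated HaCaT. The treated libraries lay below the untreated ones in both lines. REL fell by 0.70 in TIGK (SE 0.158, edgeR adjusted p = 0.00196) and by 0.79 in HaCaT (SE 0.159, edgeR adjusted p = 0.000537). The TIGK call was lost without replicate 3 of untreated (-0.501) or of treated TIGK (-0.603). RELA, which encodes p65, the most common partner of p50, had means of 4636 ± 408 and 4491 ± 247 in TIGK and 3978 ± 226 and 4142 ± 424 in HaCaT. Its log2 fold changes of -0.05 and 0.06 did not pass (edgeR adjusted p = 0.67 and 0.562). Among the other IkB genes, NFKBID, which encodes a nuclear IkB, fell by 0.89 in TIGK and by 0.79 in HaCaT (edgeR adjusted p = 0.000349 and 0.00105). NFKBIB, which encodes IkB-beta, stood at 0.17 and 0.15 (edgeR adjusted p = 0.102 and 0.129).

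Of the 8 kinase genes and partners, 2 rose in TIGK (10.2% of all genes rose), and 1 rose and 3 fell in HaCaT (18.9% and 15.2% of all genes). MAP3K14, which encodes the kinase NIK of the noncanonical branch, had 920, 874 and 889 normalized counts in untreated and 791, 732 and 717 in treated TIGK. In HaCaT it had 876, 944 and 993 before and 561, 542 and 497 after H2O2. It fell by 0.81 in HaCaT (SE 0.0833, edgeR adjusted p = 4.38e-07), stood at -0.26 in TIGK (edgeR adjusted p = 0.0176), and the responses differed by 0.55 (SE 0.116, edgeR adjusted p = 0.00436). That difference missed the limit without replicate 1 of treated TIGK (0.509) and without replicate 2 (0.548) or 3 (0.509) of untreated HaCaT. TAB1, a partner of the kinase TAK1, rose by 0.43 in TIGK and 0.32 in HaCaT (edgeR adjusted p = 0.000782 and 0.00548). The HaCaT call of TAB1 was lost without replicate 2 of untreated TIGK, replicate 2 or 3 of treated TIGK, replicate 1 or 2 of untreated HaCaT or replicate 1 or 2 of treated HaCaT, with values from 0.224 to 0.348, and without the mitochondrial genes (0.277). TAB2 rose in TIGK by 0.22 and TAB3 fell in HaCaT by 0.45 (edgeR adjusted p = 0.00513 and 0.000256). TAB2 stood at -0.007 in HaCaT and TAB3 at -0.16 in TIGK (edgeR adjusted p = 0.936 and 0.164). Their differences of responses of 0.23 and 0.29 did not pass (edgeR adjusted p = 0.0717 and 0.123). The call of TAB2 was lost without replicate 1 or 2 of either TIGK group, with values from 0.196 to 0.239.

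Of the 14 adaptor and ubiquitin ligase genes, 1 rose and 3 fell in TIGK (10.2% and 12.9% of all genes), and 5 rose and 3 fell in HaCaT (18.9% and 15.2%). TRAF3, which holds back NIK, fell by 0.52 in TIGK (edgeR adjusted p = 1.83e-05) and stood at -0.23 in HaCaT (edgeR adjusted p = 0.014). The HaCaT value passed in 11 of 22 alternatives, DESeq2 among them (-0.247), and the difference of the responses of -0.29 did not pass (edgeR adjusted p = 0.0748). TRAF5 fell by 0.50 in TIGK (edgeR adjusted p = 0.00155), a call lost without replicate 3 of untreated TIGK (-0.448) or replicate 2 (-0.481) or 3 (-0.443) of treated TIGK. In HaCaT TRAF5 stood at -0.17 (edgeR adjusted p = 0.316), and the difference of responses of -0.33 did not pass (edgeR adjusted p = 0.25). TRAF2, an adaptor of TNF receptors, rose by 0.37 in HaCaT (edgeR adjusted p = 9.59e-05) and stood at -0.08 in TIGK, and the responses differed by -0.44 (SE 0.0877, edgeR adjusted p = 0.00271). Without single libraries this difference ran down to -0.331 and missed the limit without replicate 2 of untreated TIGK, replicate 2 or 3 of treated TIGK, or replicate 2 of untreated HaCaT. RIPK1, a kinase at the TNF receptor, fell by 0.29 in TIGK and by 0.48 in HaCaT (edgeR adjusted p = 0.00657 and 6.24e-05). The TIGK call was lost without any 1 of replicates 1 and 3 of untreated TIGK and replicates 1 to 3 of treated TIGK, with values down to -0.224. It was also lost with no filter on low counts (-0.254), filterByExpr (-0.252) and either replicate block (-0.287 and -0.285), and held in 13 of 22 alternatives. SHARPIN, part of the linear ubiquitin ligase, rose by 0.51 in HaCaT (edgeR adjusted p = 5.77e-05) and stood at 0.17 in TIGK (edgeR adjusted p = 0.0971). Its difference of responses of -0.34 did not pass (edgeR adjusted p = 0.0577). Among the 6 other negative regulators tested, OTULIN, which removes linear ubiquitin chains, fell by 0.33 in HaCaT (edgeR adjusted p = 0.00108) and stood at -0.24 in TIGK (edgeR adjusted p = 0.0105). The TIGK value of OTULIN passed with DESeq2 (-0.237), and its difference of responses of 0.08 did not pass (edgeR adjusted p = 0.664). TNIP2, which binds A20, stood at -0.12 in TIGK and 0.26 in HaCaT (edgeR adjusted p = 0.283 and 0.0162). Its difference of responses of -0.38 did not pass (edgeR adjusted p = 0.0424).

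The 7 receptor genes were below TIGK in untreated HaCaT in 7 of 7 cases, beside 8382 of the 16618 genes tested. Of the 7, 6 were past the limit, beside 30.8% of all genes tested. IL1R1, the receptor of interleukin 1, had 528, 544 and 627 normalized counts in untreated and 212, 204 and 238 in treated TIGK, and 97.8, 92.8 and 107 in untreated and 42.3, 42 and 23.5 in treated HaCaT. It fell by 1.38 in TIGK (SE 0.148, edgeR adjusted p = 9.81e-07) and by 1.47 in HaCaT (SE 0.199, edgeR adjusted p = 1.12e-05). TLR2, a receptor of bacterial lipoproteins, fell by 0.52 in TIGK (edgeR adjusted p = 0.00038) from 1846 ± 230 to 1289 ± 44.5, and stood near 54.9 and 52.6 in HaCaT. The HaCaT log2 fold change of TLR2 was -0.03 (edgeR adjusted p = 0.904), and the difference of responses of -0.48 did not pass (edgeR adjusted p = 0.143). TNFRSF1B, a receptor of TNF, had 0.764, 8.84 and 9.87 normalized counts in untreated and 28.9, 23.3 and 22.4 in treated HaCaT. In TIGK it had 318, 231 and 251 before and 171, 132 and 165 after H2O2. It rose in HaCaT from this low level by 2.03 (SE 0.451, edgeR adjusted p = 0.00123), stood at -0.77 in TIGK (edgeR adjusted p = 0.0188), and the responses differed by -2.81 (SE 0.512, edgeR adjusted p = 0.00136). Without replicate 1 of untreated HaCaT, which held 1 raw count, the HaCaT value was 1.39 and the difference -2.17, and over all alternatives they ran from 1.39 to 2.55 and from -3.32 to -2.17.

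Among 12 ligand and target genes, 1 rose and 2 fell in TIGK by edgeR (10.2% and 12.9% of all genes), and 4 rose and 0 fell in HaCaT (18.9% and 15.2%). At an unadjusted p under 0.05 0 fell in HaCaT, and DESeq2 called 0 that fell. IL1A, the interleukin 1 alpha gene, rose in both lines, by 0.67 in TIGK and 1.01 in HaCaT (edgeR adjusted p = 1.38e-05 and 9.72e-08). CXCL1, a neutrophil chemokine, had 745, 646 and 532 normalized counts in untreated and 245, 240 and 286 in treated TIGK. In HaCaT it had 358, 267 and 358 before and 654, 599 and 564 after H2O2. It fell by 1.32 in TIGK (SE 0.138, edgeR adjusted p = 6.87e-07) and rose by 0.88 in HaCaT (SE 0.136, edgeR adjusted p = 4.39e-05), and the responses differed by -2.2 (SE 0.194, edgeR adjusted p = 5.01e-07). CXCL8, another neutrophil chemokine, had 219, 217 and 228 normalized counts in untreated and 453, 554 and 688 in treated HaCaT, and 1763, 1362 and 1059 before and 1083, 1266 and 1159 after H2O2 in TIGK. It rose by 1.35 in HaCaT (SE 0.167, edgeR adjusted p = 3.75e-06), and the responses differed by -1.61 (SE 0.221, edgeR adjusted p = 9.63e-05). ICAM1, an adhesion molecule for leukocytes, rose by 1.11 in HaCaT from 24.6 ± 9.24 to 55.1 ± 4.91 (edgeR adjusted p = 0.000294), beside 925 ± 55.9 and 880 ± 9.7 in TIGK. Its difference of responses of -1.18 (SE 0.236, edgeR adjusted p = 0.00306) missed the limit without replicate 2 of untreated TIGK, replicate 2 or 3 of treated TIGK, replicate 2 or 3 of untreated HaCaT, or replicate 2 of treated HaCaT, with values up to -0.986.

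**Figure D5:**
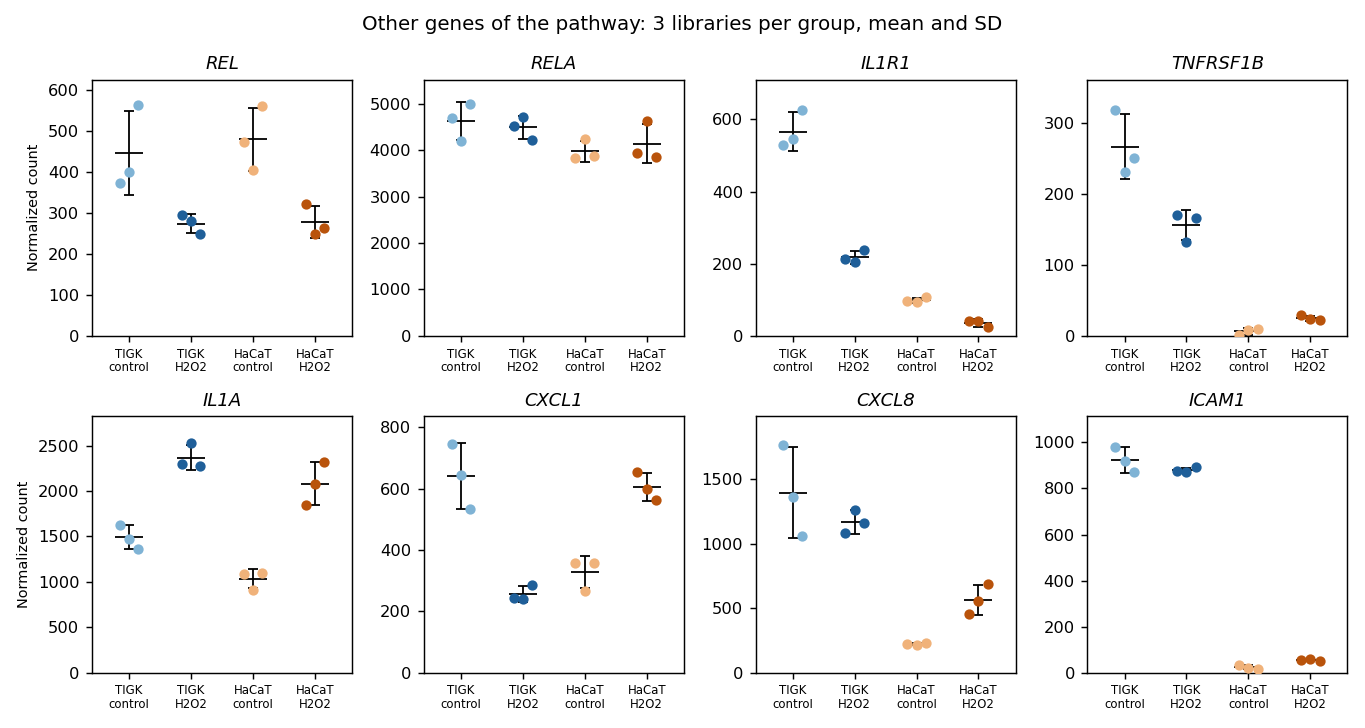
Normalized count of 8 other genes of the pathway in the 4 groups, on axes that start at 0. Points are the 3 libraries of a group, the horizontal line is their mean and the bar 1 SD. REL and IL1R1 are lower in the treated libraries of both lines, and CXCL1 is lower in treated TIGK and higher in treated HaCaT.

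The genes most like NFKBIA and TNFAIP3 over the 12 libraries were found by Pearson's r of log2 CPM (counts scaled by library size) among 11781 genes with a mean of at least 100 raw counts. For NFKBIA these were XRCC2 (0.988), FNBP1L (0.988), DNAJB5 (0.984), ZNF131 (0.983) and ACSL3 (0.982). For TNFAIP3 they were ENTPD7 (0.98), ZNF92 (0.978), ETS1 (0.974), CCNT1 (0.973) and SPAG9 (0.972). The libraries share 4 groups, so these values describe the pattern over the groups, and none of the 10 genes is among those named.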

How the data were processed

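RNA was measured in 12 libraries from the lines HaCaT and TIGK, untreated or after H2O2, and samples were grouped by their titles. The authors deposited raw read counts per gene, made with featureCounts 1.5.0-p3 from reads mapped to GRCh38 with HISAT2, of which the submitters' processing notes name versions 2.0.5 and 2.0.0 beside StringTie 1.3.3b. The annotation release and the use of strand are not given in the sources used here. Tables in which the authors give log2 fold changes from DESeq2, with adjusted p-values, were not used.

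The software was edgeR 4.0.16, DESeq2 1.42.0 and limma 3.58.1 in R 4.3.3, with matplotlib 3.10.9 in Python 3.11.15 for the plots. A gene was kept if its raw counts averaged 10 or more, and was tested with edgeR's quasi-likelihood test, 1 mean per group, TMM factors of 0.962 to 1.04, 10.4 prior degrees of freedom and a common dispersion of 0.0073. Benjamini-Hochberg adjustment ran over 16618 genes at a limit of 0.01. Normalized counts are counts divided by effective library size, on the scale of the mean library. The standard error was derived from the F statistic. The model was tested on simulated data with the same dispersion for every gene and no outlying library, a simpler setting than that of these libraries. Replicates differed by more than counting noise (chi-square per degree of freedom 4.45 to 28.2 over 12 pairs).

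The genes and lists were chosen with earlier results of these data known. Named were all 10 genes and, from the pathway list, the 2 tested genes of each role with the smallest adjusted p in each response, all with a difference of responses past the limit, and both Rel subunits. For likeness, the 5 genes with the highest r were named. The symbol SOD2 names 2 rows, of which the one with more counts was used. Alternatives were DESeq2, the compared groups alone, other scalings, filters and limits, a replicate block, and leaving out each library.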

Additional observations from a re-analysis of the deposited data

Results flagged for a closer look

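The response to H2O2 differed between the lines, by edgeR's test of the difference itself (adjusted p under the limit of 0.01), for 2 of the 10 genes and 6 of the other genes of the pathway. The differences, TIGK minus HaCaT on the log2 scale, were 1.53 for ZC3H12A and 1.06 for IER3, in the direction of a stronger rise in TIGK, and both passed in 21 of 21 alternatives. MAP3K14 had a difference of 0.552. CXCL1 had -2.2, CXCL8 -1.61, TNFRSF1B -2.81 (-2.17 without replicate 1 of untreated HaCaT), ICAM1 -1.18 and TRAF2 -0.443. The differences of MAP3K14, ICAM1 and TRAF2 were lost when single libraries were left out, as given above. TRAF2 also missed the limit with no filter on low counts (-0.385, edgeR adjusted p = 0.0113) and with the replicate block within each line (edgeR adjusted p = 0.0166). MAP3K14 missed it with the replicate block and with the block within each line (edgeR adjusted p = 0.0114 and 0.0175). Groups of 3 libraries were too small for the search for single values of a gene that stand apart.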

How the results depend on the processing

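Of 24 calls of the 10 genes over the 5 comparisons, 18 kept their direction and their side of the limit in every alternative, and of all 50 values of these genes 36 did. Over all genes, same-numbered samples did not share their deviations from the group means (correlations of -0.0319 to 0.0257 over 12 pairs). A correlation over all genes cannot exclude a pairing that touches only some of them. With the replicate block, calls over all genes went from 3850 to 3239 in TIGK, from 5664 to 5022 in HaCaT and from 881 to 606 for the difference of responses (539 with the block within each line). Under either block 2 genes of the pathway list rose in TIGK in place of 4, and 0 in place of 1 had a higher response in TIGK. That last count was 2 with no filter on low counts. NFKB1 in TIGK missed the limit with the block within each line (adjusted p = 0.0101), and between the treated lines with the replicate block (0.0102). Fitted on the compared groups alone, NFKB1 between the treated lines and ICAM1, TNFRSF1B and TAB1 in HaCaT missed the limit (edgeR adjusted p = 0.011, 0.0182, 0.0207 and 0.0217). DESeq2 called 1426 genes for the difference of responses. At a limit of 0.05, calls were 5998 in TIGK and 2019 for the difference, 10 genes of the pathway list rose in TIGK and 2 of the 10 genes rose in HaCaT.

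Leaving out 1 library, the genes of the 10 that fell in TIGK numbered 2 to 5 (2 without replicate 2 of treated TIGK) and those that rose in HaCaT 1 to 2. In the pathway list, 2 to 5 rose and 6 to 11 fell in TIGK, and the difference of responses was higher for 0 to 1 and lower for 3 to 6. The calls over all genes for that difference fell to 536, 571, 558 and 577 without replicate 2 or 3 of treated TIGK and replicate 1 or 2 of untreated HaCaT.

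Values near 0 that did not pass changed sign. Between the treated lines REL gave -0.0121 with DESeq2, -0.0108 with RLE size factors, -0.051 with library totals, -0.00505 with no filter, -0.0175 with filterByExpr and -0.0278 without the mitochondrial genes, an alternative chosen after seeing the data. NFKBIE there gave -0.0311 with library totals and -0.00608 without the mitochondrial genes. The difference of responses of BIRC3 gave 0.00478, 0.00467, 0.0398, 0.0443 and 0.031 with DESeq2, RLE, no filter, filterByExpr and no mitochondrial genes. With library totals TAB2 in HaCaT gave 0.00785 and MAP3K14 between the untreated lines -0.00709. The cause was not tested.

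Without single libraries, values that changed sign ran from -0.104 to 0.0558 (BIRC3), -0.144 to 0.294 (IL1R1), -0.058 to 0.124 (NFKBIB), -0.205 to 0.00851 (NFKBID), -0.0399 to 0.285 (REL) and -0.155 to 0.00489 (RELA) for the difference of responses. In HaCaT they ran from -0.11 to 0.0256 (NFKB1), -0.0274 to 0.109 (RELA), -0.0791 to 0.0139 (TAB2) and -0.167 to 0.123 (TLR2), and in TIGK from -0.169 to 0.0463 (NFKBIE) and -0.0887 to 0.027 (RELA). Between the treated lines they ran from -0.0918 to 0.142 (NFKBIE) and -0.131 to 0.0992 (REL), and between the untreated lines from -0.0133 to 0.307 (REL). Raw counts in untreated HaCaT were 1 to 10 for TNFRSF1B and 18 to 46 for ICAM1.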
